A study of Mus musculus with 14 samples.

Results

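The hybridisation of 4 wk male liver (M4) against 4 wk female liver (F4) was 1 of the 7 comparisons of the series and took 2 of its 14 microarrays. Both arrays were chosen because their labels named 4 wk male liver in one dye channel and 4 wk female liver in the other. M4 and F4 were livers of CD-1 mice, an outbred stock, for which the labels name no treatment, from 12 mice of each sex pooled into 2 RNA samples of 6 livers. M4 was in the red channel and F4 in the green channel of replicate 1, and the dyes were swapped in replicate 2. Comparisons of CD-1 liver at 3 wk (M3/F3, pools of 5 mice) and at 8 wk (M8/F8, pools of 6 mice) were read beside it and shared no pool with it. The pups had been bought with surrogate mothers, and 3 wk was the age of weaning. A pool hides the spread between mice, the p-values measure the spread between pools and arrays, and 2 arrays limit the precision of each ratio. In bulk liver, a change in the share of a cell type and a change in RNA per cell cannot be told apart.

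Sex differences in adult mouse liver depend largely on pituitary growth hormone, whose secretion is pulsatile in males and nearly continuous in females after puberty. Growth hormone acts in hepatocytes through its receptor, the kinase JAK2 and the transcription factor STAT5b. Among the best known genes that differ are cytochromes P450, sulfotransferases and the major urinary proteins, which carry pheromones in male urine. The comparison at 4 wk asks which of these differences are present shortly after weaning, before sexual maturity.

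Of 18258 genes and unnamed probes bright enough to test, 291 (1.59%) differed between M4 and F4. Expression was higher in males for 113 (0.619%, male-biased) and higher in females for 178 (0.975%, female-biased). A gene was called when any of its probes was called. For a probe this took an adjusted p below 0.05 in a limma fit over all 14 arrays and a difference of over 1.5-fold in either direction. M4 or F4 signal also had to be well above background on each of the 2 arrays. The median log2 ratio was 0.78 among the male-biased and -0.87 among the female-biased genes, against 0.0047 over all probes bright enough. Both arrays lay on the called side of 0 for 113 of 113 male-biased and 176 of 178 female-biased genes. The same 2 arrays gave the ratios that were called, so this is no separate support for the calls. The p-values were adjusted over the probes of all 7 comparisons together. Adjusted over M4/F4 alone, 50 male-biased and 86 female-biased genes were called, and with the 2 M4/F4 arrays fitted alone in limma 0 were called, where 3065 of 22139 probes had an unadjusted p below 0.05. Without replicate 1, 54 of the 113 male-biased and 73 of the 178 female-biased genes were still called, and without replicate 2 these numbers were 57 and 95.

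The 2 arrays were not equally bright. On replicate 1, 77.2% of spots in the red channel and 65.93% in the green channel were well above background, and on replicate 2 these shares were 57.83% and 55.21%. A log ratio of exactly 0 was listed for 5057 spots on replicate 1 and 12840 on replicate 2, the lowest and the highest number among the 14 arrays. The SD between the 2 arrays was 0.209 on the log2 scale over the probes bright enough.

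The labelled sexes were checked with sex chromosome genes. Ddx3y, a Y-linked RNA helicase, had log2 ratios of 6.78 and 5.80 on replicates 1 and 2, and Eif2s3y, a Y-linked translation factor subunit, had 8.02 and 6.87, with F4 above background on 1 of the 2 arrays. Uty, a Y-linked relative of histone demethylases, was well above background in M4 and on 0 arrays in F4, and was at least 12.0-fold higher in males. Xist, the RNA that coats the inactive X chromosome, was well above background in F4 and on 0 arrays in M4, and was at least 12.6-fold higher in females. Such bounds set the brighter group against the lowest signal counted as above background. Both arrays went with their labels.

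All 9 measured genes of X inactivation or escape lay below 0, with a median log2 ratio of -0.50. Besides Xist, Jpx, a noncoding activator of Xist, was called female-biased with -0.78 and -0.63 (adjusted p = 0.00263 in limma). The other members, such as Kdm6a (-0.32 and -0.21) and Kdm5c (-0.37 and -0.35), differed by less than 1.5-fold at their brightest probe. Another probe of Ftx, a noncoding neighbour of Xist, was called female-biased. The Ftx call was lost with the adjustment over M4/F4 alone and the Jpx call with normexp background correction. An error-weighted average of the 2 arrays called neither Ftx nor Jpx. The probes named Eif2s3x, the X-linked partner of Eif2s3y, disagreed. One was called male-biased with 1.82 and 1.85, and the brightest lay at -0.57 and -0.56. The X chromosome held 11 genes with a called probe, 5 male-biased, Eif2s3x among them, and 6 female-biased. By their brightest probe, 423 of its genes were tested. Over all chromosomes 228 named genes had a called probe, and 13080 were tested by their brightest probe.

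**Figure D1:**
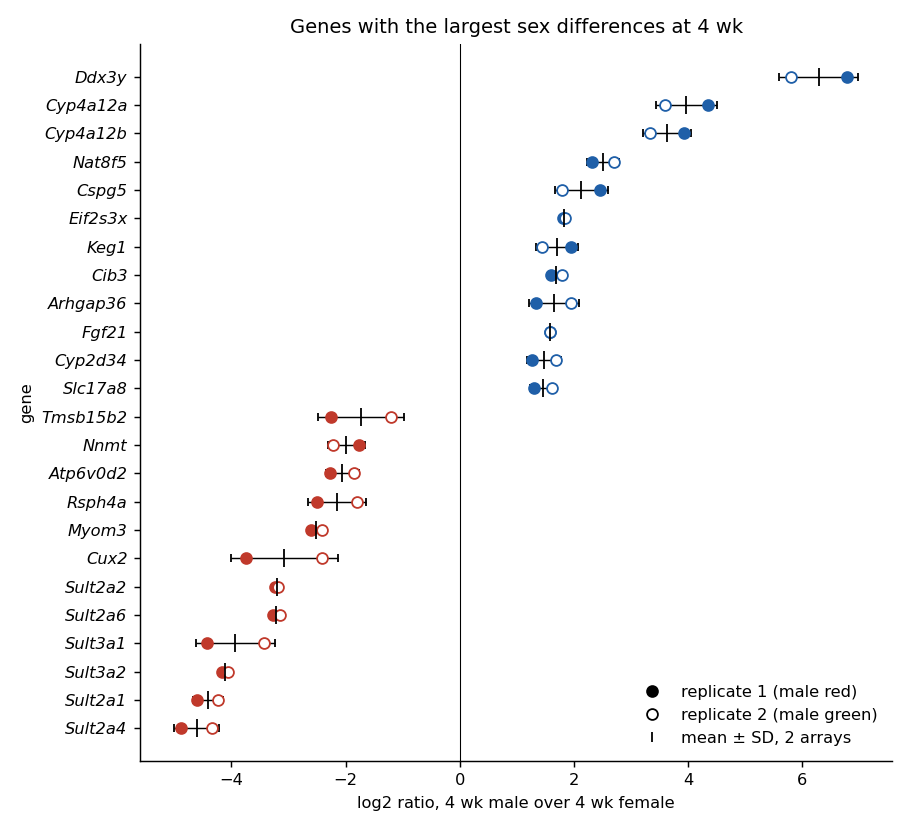
Log2 ratio of 4 wk male over 4 wk female liver (x axis) for the 12 genes with the largest and the 12 with the smallest ratios (y axis) among called, named genes with the same sign on both arrays and signal above background in males and females alike. Filled circles are replicate 1, open circles are replicate 2 with swapped dyes, and ticks with bars are the mean and SD of the 2 arrays. Blue genes were higher in males and red genes in females, and 6 of the 12 female-biased genes are sulfotransferases.

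Among named genes above background in both sexes, sulfotransferases led the female-biased genes. Sult2a4 had log2 ratios of -4.89 and -4.34, Sult2a1 had -4.60 and -4.23, Sult2a6 had -3.27 and -3.15 and Sult2a2 had -3.23 and -3.18. These enzymes of chromosome 7 add sulfate to steroids and bile acids, and Sult2a1 was 21.3-fold higher in females (adjusted p = 0.00137). The family is near-identical in sequence, so the probes may share signal, and the 4 ratios are not separate measurements. Sult3a1 (-4.42 and -3.43) and Sult3a2 (-4.17 and -4.06), amine sulfotransferases of chromosome 10, lay as far from 0, but their calls were lost with the adjustment over M4/F4 alone and without either replicate, each left out in turn. At 3 wk Sult2a1 had -1.35 and -0.79 and Sult3a1 had -0.81 and 2.18, on opposite sides of 0, and neither was called.

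The same 4 wk pools had also been hybridised against 8 wk pools, so that M8/F8 minus M8/M4 plus F8/F4 gives M4/F4 by other arrays. By these arrays the ratio lay on the called side of 0 in both replicates for 112 of the 113 male-biased and 172 of the 178 female-biased genes, and differed from the direct ratio by less than 1.5-fold in both for 104 and 149. Several sulfotransferases lay nearer to 0 by the other arrays. Sult2a6 had -1.59 and -1.88 in replicates 1 and 2, Sult2a2 had -1.87 and -2.20, and Sult3a2 had -3.27 and -1.35. Sult2a1 (-3.87 and -3.34) and Sult2a4 (-3.76 and -3.22) kept ratios below -3. Over all probes bright enough, direct and other arrays differed with an SD of 0.167 in replicate 1 and 0.17 in replicate 2.

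The other leading female-biased genes were of mixed function. Cux2, a homeodomain transcription factor that marks adult female liver, had -3.74 and -2.41 and was 8.41-fold higher in females (adjusted p = 0.000447). It was not called at 3 wk (-0.39 and 0.00) and was female-biased at 8 wk (mean -4.97). Atp6v0d2, a subunit of the vacuolar proton pump, had -2.26 and -1.85, and Nnmt, which methylates nicotinamide, had -1.76 and -2.22. Myom3, a gene of the muscle M-band, had -2.61 and -2.42, and its ratios of -0.78 and 0.34 at 3 wk and -0.96 and -1.94 at 8 wk were not called. Rsph4a, a component of motile cilia, had -2.51 and -1.79. Tmsb15b2, a thymosin gene of the X chromosome, had -2.26 and -1.20, against a mean of 1.29 at 3 wk that was not called. The calls of Myom3 and Rsph4a were lost without either replicate, that of Tmsb15b2 without replicate 1 and that of Nnmt without replicate 2. With the adjustment over M4/F4 alone, Rsph4a and Tmsb15b2 were not called.

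Among named autosomal genes above background in both sexes, Cyp4a12a and Cyp4a12b led the male-biased genes. These P450s of chromosome 4 hydroxylate fatty acids, and in adult males they depend on androgens and growth hormone. Cyp4a12a had 4.34 and 3.59, a 15.6-fold difference (log2 SE 0.56, adjusted p = 0.00466), and Cyp4a12b had 3.93 and 3.33. The arrays against 8 wk pools gave 4.49 and 2.38 for Cyp4a12a and 4.09 and 1.635 for Cyp4a12b, nearer to 0 in replicate 2. Both calls were lost without replicate 1. Nat8f5, an N-acetyltransferase relative, had 2.32 and 2.71, and Cspg5, a chondroitin sulfate proteoglycan, had 2.46 and 1.80. Others of these autosomal genes were Keg1, an acyltransferase relative (1.96 and 1.44), Cib3, a calcium-binding protein (1.61 and 1.79), Cyp2d34 (1.26 and 1.68) and Slc17a8, a vesicular glutamate transporter (1.30 and 1.63). Arhgap36, of the X chromosome, had 1.34 and 1.96. Cyp2d34 lost its call without either replicate and Keg1 without replicate 1, and both lost it with the adjustment over M4/F4 alone. Fgf21, a hormone that liver secretes in fasting, had 1.59 and 1.58, and its ratios of 1.00 and -0.08 at 3 wk and 0.94 and -0.55 at 8 wk were not called. The difference between 8 and 4 wk did not pass the test for Fgf21 (adjusted p = 0.246), and its 4 wk call was lost without replicate 2 and with the adjustment over M4/F4 alone.

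Lists of related genes were read beside all 13080 named genes tested with 1 probe each. Of these, 81 (0.619%) were male-biased and 127 (0.971%) female-biased at 4 wk, and their median log2 ratio was 0.003. The lists were drawn up with earlier results of these data known, so their counts are no independent evidence of a direction.

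**Figure D2:**
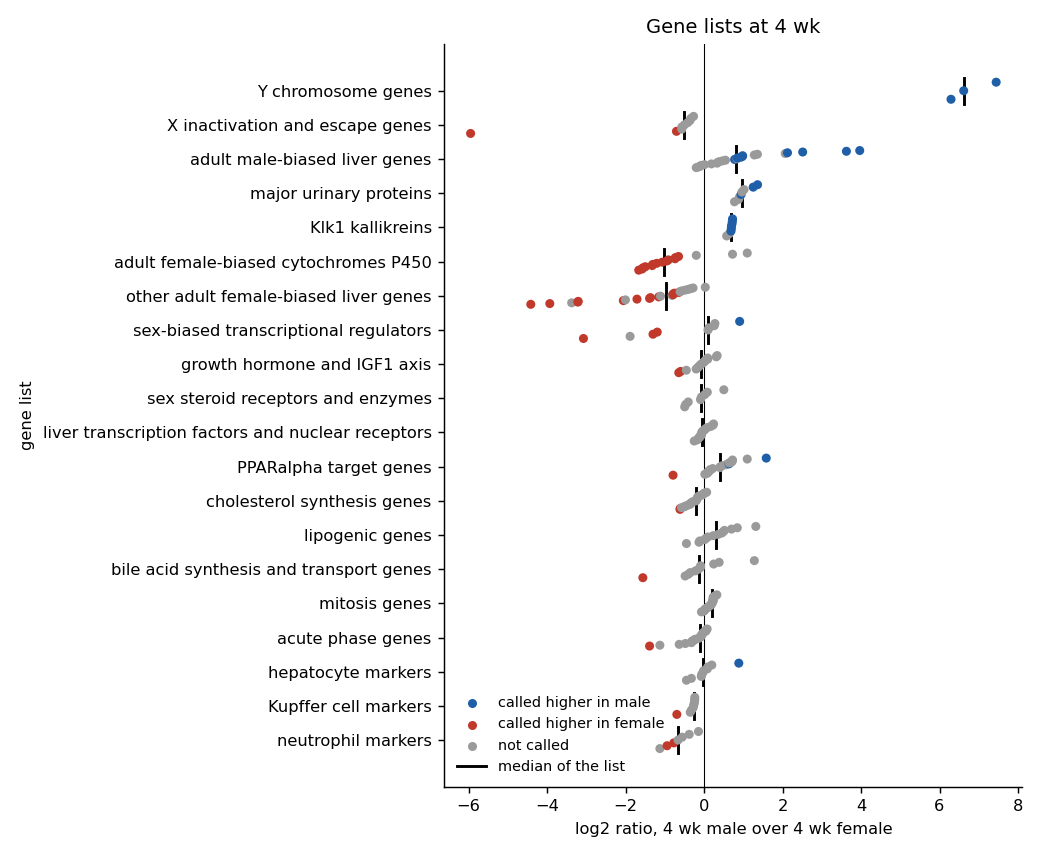
Log2 ratio of 4 wk male over 4 wk female liver (x axis) for each measured member of 20 gene lists (y axis). Blue and red points were called higher in males and females, grey points were not called, and black bars are list medians. The median was 0.81 for adult male-biased genes, -1.01 for adult female-biased P450s and -0.06 for liver transcription factors.

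Of the genes known to be male-biased in adult liver, 9 of 24 measured were called male-biased at 4 wk and 0 female-biased. The median log2 ratio was 0.81, and 20 lay above 0. Besides Cyp4a12a, Cyp4a12b, Nat8f5 and Cspg5, these were C6, a component of the complement attack complex (1.00 and 0.97), Cyp2d9, a steroid hydroxylase (0.92 and 1.03), and Fitm1, which promotes storage of fat droplets (0.96 and 0.91). Nudt7, which cleaves coenzyme A in peroxisomes (1.01 and 0.68), and Alas2, a heme synthesis enzyme (0.70 and 0.86), completed the called members. With the adjustment over M4/F4 alone 6 were called, with Cyp2d9, Nudt7 and Alas2 lost. Without replicate 1 there were 4 and without replicate 2 there were 6, with C6 among those lost.

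Other adult male-biased genes had a positive ratio on both arrays but were not called. Elovl3, a fatty acid elongase, had 2.70 and 1.44 (adjusted p = 0.0599), Cyp7b1, an oxysterol hydroxylase, had 1.96 and 0.60, and Hsd3b5, a steroid dehydrogenase, had 1.69 and 1.03. The study's qPCR of individual livers found Hsd3b5 significantly higher in males by 4 wk. Ugt2b1, a glucuronosyltransferase (0.03 and -0.01), and Susd4, a complement regulator (-0.20 and 0.05), lay near 0 at 4 wk. At 8 wk both were male-biased, with means of 1.12 and 2.06, and the difference between the ages passed the test for each (adjusted p = 0.0331 and 0.0286).

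All 8 measured major urinary proteins lay above 0 at 4 wk, with a median log2 ratio of 0.96, and 3 were called. Mup3 had 1.75 and 0.98, Mup21 had 1.38 and 1.13, and Mup20, the male pheromone darcin, had 1.31 and 0.58. Mup19 (1.69 and 0.12) had the widest gap between arrays, and replicate 1 was above replicate 2 for each of the 8. With the adjustment over M4/F4 alone, and without either replicate, 0 of the 8 were called in limma, while a fit of 6 group means called 6 and the error-weighted average 8. At 3 wk the median was -0.48 and 0 were called, and at 8 wk it was 2.22 and 8 were called. The difference between 8 and 4 wk passed the test for Mup20 (3.20, SE 0.34, adjusted p = 0.0129). Mup20 was not called at 4 wk with the replicate number as a block. The genes are near-identical, and their probes may share signal.

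The promoters of Mup3 and Mup21 are printed because these genes lie near each other on chromosome 4 and were called in the same direction. They come from RefSeq (GRCm38.p6), run from 250 bases before the gene start to 50 after it on the minus strand, and lie at chr4:62087268-62087567 and chr4:62150792-62151091. Capitals mark ATCAAT on either strand, core letters recognised by the liver factor HNF6.
Mup3: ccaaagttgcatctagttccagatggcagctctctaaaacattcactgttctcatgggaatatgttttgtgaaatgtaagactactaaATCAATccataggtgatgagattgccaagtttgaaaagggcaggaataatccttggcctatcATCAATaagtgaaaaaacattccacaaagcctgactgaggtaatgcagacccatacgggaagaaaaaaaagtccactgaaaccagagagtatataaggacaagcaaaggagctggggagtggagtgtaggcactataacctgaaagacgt
Mup21: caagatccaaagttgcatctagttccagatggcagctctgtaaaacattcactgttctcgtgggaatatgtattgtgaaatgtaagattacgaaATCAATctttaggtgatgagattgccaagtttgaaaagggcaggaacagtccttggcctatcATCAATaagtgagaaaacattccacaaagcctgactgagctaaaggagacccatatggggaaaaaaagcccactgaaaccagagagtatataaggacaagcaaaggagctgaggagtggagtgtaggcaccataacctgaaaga
The promoters matched at 276 of 294 aligned positions (93.9%) and each held ATCAAT at 2 positions. Of 27025 genes with a promoter window, 8.63% had at least 1 match.

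Of the P450s known to be female-biased in adult liver, 13 of 16 measured were called female-biased at 4 wk and 0 male-biased. The median log2 ratio was -1.01. Cyp3a44, of a family that oxidises steroids and drugs, had -1.90 and -1.42, a 3.17-fold difference, and its relative Cyp3a16 had -0.90 and -0.57. By the study's account the Cyp3a16 probe also hybridises with Cyp3a11, so its ratio is not that of Cyp3a16 alone. The study's qPCR found Cyp3a16 and Cyp2b9 significantly higher in females at 4 wk. Cyp17a1, which makes androgen precursors, had -1.44 and -1.71, a 2.98-fold difference, and Cyp7a1, the rate-limiting enzyme of bile acid synthesis, had -1.72 and -1.40, a 2.95-fold difference. Cyp39a1, an oxysterol hydroxylase, had -1.11 and -0.71. Further members were Cyp2c37 (-1.25 and -1.17), Cyp2c39 (-0.70 and -0.60), Cyp2g1 (-1.86 and -1.13), Cyp2a4 (-1.46 and -1.16) and Cyp2a22 (-1.31 and -0.59). With the adjustment over M4/F4 alone 6 were called, and without replicate 1 there were 3, Cyp17a1, Cyp7a1 and Cyp2c37. The error-weighted average and a fit of 6 group means called 13 and 12 female-biased, and each called 2 members male-biased.

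The 3 Cyp2b genes, of a family induced through the receptor CAR, were called female-biased with log2 ratios of -1.43 and -0.70 for Cyp2b9, -0.88 and -0.59 for Cyp2b10 and -1.55 and -1.09 for Cyp2b13. The calls of Cyp2b9 and Cyp2b13 were lost without either replicate, and that of Cyp2b9 also with the replicate number as a block. For Cyp2b13 the arrays against 8 wk pools gave 0.55 and 0.01 in replicates 1 and 2, without the female bias of the direct arrays. For Cyp2b10 they gave -0.10 and -0.60, and for Cyp3a44 -2.06 and -1.88.

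The promoters of Cyp3a16 and Cyp3a44, on the minus strand, and of Sult3a1, on the plus strand, are printed because they hold motif letters, from the same source and over the same window. They lie at chr5:145469674-145469973, chr5:145805825-145806124 and chr10:33857472-33857771. Capitals mark ATCAAT on either strand and, in Sult3a1, also TTCNNNGAA, the letters bound by STAT5.
Cyp3a16: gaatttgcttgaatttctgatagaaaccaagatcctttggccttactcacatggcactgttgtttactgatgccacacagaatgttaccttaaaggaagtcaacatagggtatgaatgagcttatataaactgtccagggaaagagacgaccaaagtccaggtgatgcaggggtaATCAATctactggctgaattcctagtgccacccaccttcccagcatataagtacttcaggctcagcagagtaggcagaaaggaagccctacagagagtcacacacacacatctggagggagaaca
Cyp3a44: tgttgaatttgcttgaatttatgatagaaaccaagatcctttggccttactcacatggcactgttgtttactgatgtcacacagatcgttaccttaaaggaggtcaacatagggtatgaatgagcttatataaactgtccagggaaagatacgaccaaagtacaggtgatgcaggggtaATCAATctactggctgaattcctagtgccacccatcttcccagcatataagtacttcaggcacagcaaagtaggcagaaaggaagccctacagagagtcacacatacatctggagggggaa
Sult3a1: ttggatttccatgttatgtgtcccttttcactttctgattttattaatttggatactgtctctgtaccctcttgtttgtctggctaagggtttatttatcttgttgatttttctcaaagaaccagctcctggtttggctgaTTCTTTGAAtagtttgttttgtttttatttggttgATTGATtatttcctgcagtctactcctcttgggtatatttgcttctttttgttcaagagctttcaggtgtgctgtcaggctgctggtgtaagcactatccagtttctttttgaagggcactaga
The Cyp3a16 and Cyp3a44 windows matched at 284 of 296 aligned positions (95.9%), and 9.55% of all genes with a window held TTCNNNGAA. Other members of these families mostly held neither motif. The windows of Sult2a4, Sult2a6, Sult3a2, Cyp2b9, Cyp2b10, Cyp2b13, Cyp2a4, Cyp2a22 and Cyp2c39 had 0 matches to either, and that of Cyp2c37 held ATCAAT at 2 positions. A window was found for 166 of the 228 named genes called at 4 wk (72.8%), and called genes were not set against all genes.

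Cyp4a10 and Cyp4a14, fatty acid hydroxylases induced through the receptor PPARalpha, are female-biased in adult liver and had ratios above 0 at 4 wk. Cyp4a14 had 1.14 and 1.06 (adjusted p = 0.0773) and a mean of -2.29 at 8 wk, and the difference of -3.39 passed the test (SE 0.47, adjusted p = 0.0293). The brightest Cyp4a10 probe had 0.58 and 0.88 (adjusted p = 0.0556) and -2.25 at 8 wk, and the difference of -2.97 passed the test (adjusted p = 0.00982). Another Cyp4a10 probe was called male-biased at 4 wk with 0.74 and 0.57 and female-biased at 8 wk with a mean of -0.73. The study's qPCR found Cyp4a10 significantly male-biased at 4 wk. The probes of their relative Cyp4a31 disagreed at 8 wk. One had 0.65 and 0.65 at 4 wk and a mean of -1.73 at 8 wk, and another had 0.88 and 0.50 at 4 wk and 0.34 at 8 wk. On arrays that share the 4 wk pools, 8 wk over 4 wk was -3.05 in males and -0.16 in females for Cyp4a14, with adjusted p-values of 0.00178 and 0.94.

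Of 24 other genes known to be female-biased in adult liver, 13 were called female-biased at 4 wk and 0 male-biased. The median log2 ratio was -0.96, and 23 lay below 0. Besides the sulfotransferases, Akr1b7, an aldose reductase relative, had -2.01 and -1.41, and Nipal1, a magnesium transporter relative, had -1.51 and -1.22. Fmo2, a flavin monooxygenase, had -0.84 and -0.73, and Rdh16f2, a retinol dehydrogenase relative, had -0.90 and -0.61. A1bg, a plasma glycoprotein, had -1.43 and -0.88 at 4 wk after 1.27 and 1.17 at 3 wk, where it was called male-biased. The difference between these ages did not pass the test for A1bg (adjusted p = 0.15). With the adjustment over M4/F4 alone 8 were called, and without replicate 1 there were 5, with Akr1b7, Fmo2, Rdh16f2 and A1bg among those lost.

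Some adult female-biased genes were not called at 4 wk. Hao2, an oxidase of hydroxy acids, had -0.52 and -0.18 at 4 wk and a mean of -5.33 at 8 wk, and Slc22a29, an organic anion transporter relative, had -1.05 and -0.17 at 4 wk and a mean of -4.98 at 8 wk. The difference between the ages passed the test for Slc22a29 (adjusted p = 0.00847) but not for Hao2 (0.155). Sult1e1, the estrogen sulfotransferase, was well above background in F4 and on 0 arrays in M4, and was at least 3.25-fold higher in females, but it did not pass the test (adjusted p = 0.0522).

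Of 9 measured transcriptional regulators and signals known to be sex-biased in adult liver, 1 was called male-biased and 3 female-biased. Ihh, a hedgehog ligand, had 1.00 and 0.81, a 1.88-fold difference (adjusted p = 0.00304), against a mean of -0.23 at 3 wk. Cux2 is given above, Tox, an HMG-box factor, had -1.47 and -1.13, and Trim24, a nuclear receptor co-regulator, had -1.39 and -1.0. Without either replicate, and with the adjustment over M4/F4 alone, these 4 calls were kept. Cdx4, a homeobox gene, had -2.07 and -1.70, with M4 above background on 1 of the 2 arrays, and was not called (adjusted p = 0.0905). Jazf1 (0.51 and -0.30) and Id1 (0.48 and 0.04), both female-biased at 8 wk, were not called at 4 wk, and the difference between the ages passed the test for each (adjusted p = 0.0279 and 0.0168). Bcl6, a repressor that is male-biased in adult liver, had 0.09 and 0.46.

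In the growth hormone and IGF1 axis, 0 of 15 measured genes were called male-biased and 2 female-biased, with a median log2 ratio of -0.07. Ghr, the growth hormone receptor, had -0.03 and 0.09, Jak2 had -0.13 and -0.08, and Stat5b had -0.06 and -0.35. Igf1, the main growth factor made by liver, had 0.25 and -0.22. The called genes were Prlr, the prolactin receptor (-0.88 and -0.40), and Igfbp2, which binds insulin-like growth factors (-0.60 and -0.59). Both calls were lost without replicate 1. Igfbp2 was female-biased at 3 wk with -1.17 and -1.27 and had 0.57 and 0.40 at 8 wk, and the difference between 8 and 4 wk passed the test (1.08, SE 0.07, adjusted p = 0.00409).

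Of 8 measured sex steroid receptors and enzymes and 15 liver transcription factors, 0 were called in limma. Esr1, the estrogen receptor, had -0.17 and -0.64, Hnf4a had -0.01 and -0.06, and Onecut1, which encodes HNF6, had 0.09 and 0.07. Without the fold threshold, Srd5a1, a steroid 5-alpha reductase (0.44 and 0.57, adjusted p = 0.00182), and Akr1d1, a steroid 5-beta reductase (-0.65 and -0.34, adjusted p = 0.000296), were the members with an adjusted p below 0.05.

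Klk1 kallikreins, serine proteases of chromosome 7, were called male-biased for 6 of 8 measured members. Their means lay between 0.58 and 0.73, and the list median of 0.70 stood between 0.64 for M3/F3 and 0.77 for M8/F8. Klk1b4 had 0.72 and 0.65, Klk1b22 had 0.81 and 0.61, and Klk1b24 had 0.78 and 0.68. The family is near-identical in sequence, so probes may share signal. With normexp background correction the calls of Klk1, Klk1b5, Klk1b22 and Klk1b24 were lost, and those of Klk1 and Klk1b5 also without either replicate. Klk1b22 was also lost without replicate 2, and Klk1b5 with the replicate number as a block. Of the 8, 4 were called without replicate 1 or with the adjustment over M4/F4 alone, 3 without replicate 2 and 8 with 6 group means.

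Genes of lipid metabolism were read in 4 lists. Of 19 measured PPARalpha targets, 18 lay above 0, 2 were called male-biased and 1 female-biased. Their median log2 ratio was 0.42, against 0.08 in M3/F3 and -0.35 in M8/F8. Besides Fgf21, Acaa1b, a peroxisomal thiolase, was male-biased (0.65 and 0.63), and Acot3, a peroxisomal thioesterase, was female-biased (-1.05 and -0.53), a call lost without either replicate. Of 21 cholesterol synthesis genes, 19 lay below 0 with a median of -0.20, and Hmgcs1 (-0.70 and -0.52) and Msmo1 (-0.75 and -0.47) were called female-biased. Both calls were lost without replicate 1, and that of Hmgcs1 also without replicate 2. Of 14 lipogenic genes, 11 lay above 0 and 0 were called in limma, with Scd1, a fatty acid desaturase, at 1.16 and 1.48 (adjusted p = 0.198). The error-weighted average of the 2 arrays called 7 PPARalpha targets and 3 lipogenic genes male-biased. Of 11 bile acid genes 1 was called, Cyp7a1.

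Of 24 mitosis genes, 22 lay above 0, with a median log2 ratio of 0.20 at 4 wk and 0.46 at 3 wk, and 0 were called in limma. Of 10 interferon response genes, 5 night phase and 8 day phase clock genes, 0 were called in the main limma fit. The error-weighted average and the fit of 6 group means each called 1 day phase clock gene female-biased. Per1, a day phase clock gene, had -1.0 and -0.80 (adjusted p = 0.0765). Of 21 acute phase genes 1 was called, Orm3 (-1.57 and -1.20), while Orm1 had -0.08 and 0.14. The call of Orm3 was lost without replicate 1.

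Markers of several other cell types lay mostly on one side of 0. All 9 Kupffer cell markers lay below 0, with a median log2 ratio of -0.27, and Marco, a scavenger receptor, was called (-0.83 and -0.56). Their summed signal was 31930 in M4 and 42000 in F4 on replicate 1, and 33030 and 37950 on replicate 2. All 7 measured neutrophil markers lay below 0, with a median of -0.66, and S100a8 (-0.85 and -0.69) and S100a9 (-1.08 and -0.81) were called. Over all 8 neutrophil markers on the array, the summed signal was 3091 in M4 and 6238 in F4 on replicate 1, and 2903 and 5399 on replicate 2. Of 7 bile duct markers 1 was called, Spp1 (1.21 and 0.62), and of 10 hepatocyte markers 1 was called, Fabp1, a fatty acid binding protein (1.12 and 0.65). The calls of Marco and Spp1 were lost without either replicate, that of Spp1 also with the replicate number as a block, and that of S100a9 without replicate 1. Of the 7 bile duct markers 6 lay above 0. All 10 hepatocyte markers were bright enough to test, and Alb had 0.38 and -0.45. Of 7 lymphocyte, 9 erythroid, 8 mesenchymal, 7 sinusoidal endothelial and 3 pancreas markers measured, 0 were called in limma, though all 7 lymphocyte markers (median -0.15) and 8 of the 9 erythroid markers (median -0.19) lay below 0. Of 3 adipocyte markers 0 were bright enough to test. The part of these cells in other ratios was not tested.

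The sex difference at 4 wk was then set beside that at 3 and 8 wk. M3/F3 had 97 called genes (0.520%), with 0.193% of the genes tested male-biased and 0.332% female-biased. M8/F8 had 1348 (7.00%), with 3.18% male-biased and 3.82% female-biased. The replicate 1 arrays of these 3 comparisons were on one slide and the replicate 2 arrays on another, scanned on the same day.

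**Figure D3:**
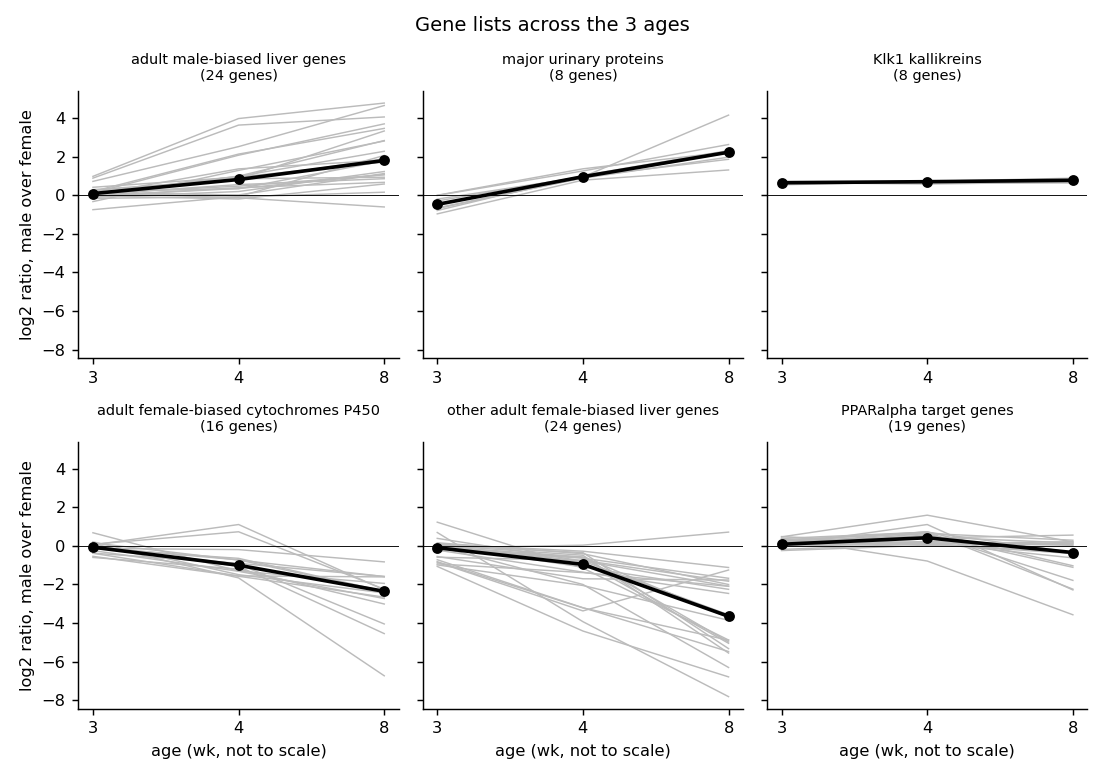
Log2 ratio of male over female liver (y axis) at 3, 4 and 8 wk (x axis, not to scale) for the measured members of 6 gene lists. Grey lines are genes and black points are list medians. The adult female-biased P450s have medians of -0.07, -1.01 and -2.36 at the 3 ages, and the Klk1 kallikreins 0.64, 0.70 and 0.77.

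Of the 113 genes male-biased at 4 wk, 103 (91.2%) lay above 0 at 8 wk, where 66 were called in the same direction, 2 in the opposite direction (Cyp4a10 and an unnamed probe) and 45 not called. These counts take 1 probe for each gene, and a further probe of Cyp4a31, given above, was also called in opposite directions at the 2 ages. Of the 178 genes female-biased at 4 wk, 170 (95.5%) lay below 0 at 8 wk, where 60.1% were called in the same direction, 0 in the opposite direction and 71 genes not called. Among all 13080 named genes tested, 50.2% lay above 0 at 8 wk, and 2.23% were called male-biased and 3.60% female-biased. Most 4 wk calls thus had the same sign in separate pools of 8 wk mice. At 3 wk, where 0.176% of the named genes were called male-biased and 0.291% female-biased, 96 (85.0%) of the male-biased genes lay above 0 and 15 were called in the same direction, and 143 (80.3%) of the female-biased genes lay below 0 and 14 were called in the same direction. In the opposite direction at 3 wk were 2 of the female-biased genes, A1bg and Angptl8, an inhibitor of lipoprotein lipase (-1.14 and -0.40 at 4 wk and a mean of 0.78 at 3 wk). The 4 wk calls of both were lost without replicate 1. The median log2 ratio of the female-biased genes was -0.19 at 3 wk and -0.95 at 8 wk, and that of the male-biased genes 0.27 and 0.78.

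The difference between 4 and 3 wk passed the test for 1 gene (0.00529%), Serinc2, of the serine incorporator family. It had 1.1 and 0.84 at 4 wk and 0.36 and 0.16 at 3 wk (difference 0.71, adjusted p = 0.0304). An unadjusted p below 0.05 was found for 2246 of 22901 probes, and without 1 array of either age between 1 and 25 genes passed, with 25 without replicate 2 of M4/F4. The call of Serinc2 was lost without the dye term and at a fold of 2, which left 0 genes in limma, while normexp gave 9 genes and 6 group means gave 117, Serinc2 among them. For the other genes, a call at 4 wk without one at 3 wk was not shown to be a difference between the ages.

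The difference between 8 and 4 wk passed the test for 273 genes (1.40%), 0.776% towards males and 0.627% towards females. Of the 113 male-biased genes it was larger at 8 wk for 7 and smaller or reversed for 4, and of the 178 female-biased genes larger for 26 and smaller or reversed for 2. Without 1 array of either age, between 68 and 169 genes passed. These were 68 and 169 without replicates 1 and 2 of M4/F4, and 142 and 155 without replicates 1 and 2 of M8/F8. Without the dye term 179 passed, and with 6 group means 971.

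**Figure D4:**
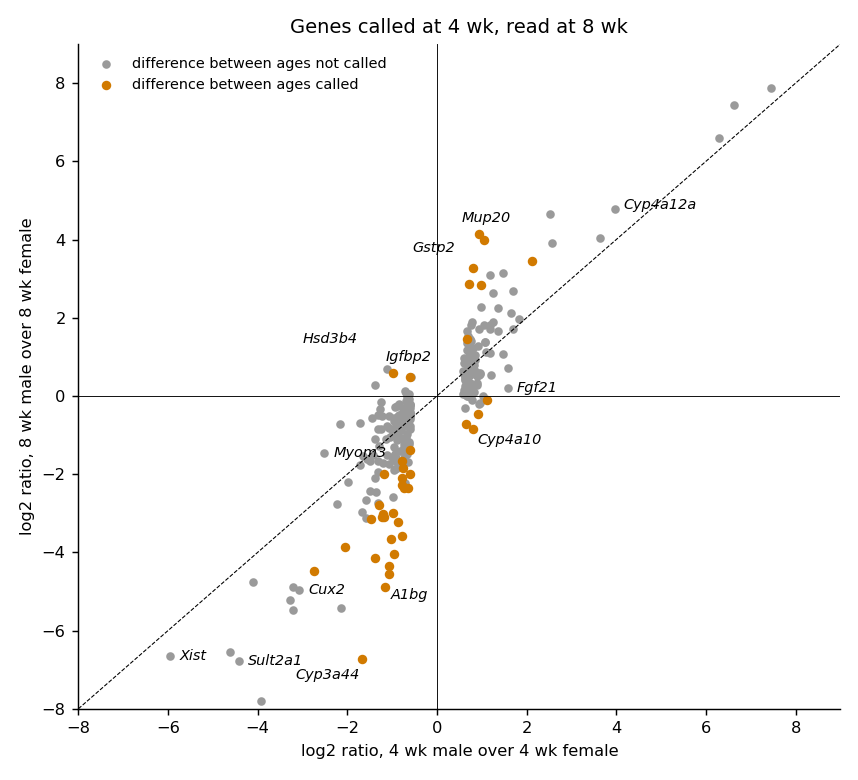
Log2 ratio of 8 wk male over female liver (y axis) against that of 4 wk male over female liver (x axis) for the 291 genes and unnamed probes called at 4 wk. Orange points differed between the ages by the test, grey points did not, and the dashed line marks equal ratios. Cyp3a44 and A1bg lie far below the line, Mup20 and Gstp2 lie above it, and Igfbp2, Hsd3b4 and Cyp4a10 change sign between the ages.

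Among genes called female-biased at 4 wk, several P450s were further below 0 at 8 wk. Cyp3a44 went from -1.90 and -1.42 to -6.41 and -7.05, a difference of -5.07 (SE 0.36, adjusted p = 0.00521). Differences of -3.73, -3.48, -3.43, -3.10, -2.78 and -2.75 were found for A1bg, Cyp2b9, a probe of Sult2a2, Cyp2a22, Acot3 and Cga, the alpha subunit of pituitary glycoprotein hormones. Among male-biased genes, Gstp2, a glutathione transferase, went from 1.43 and 0.68 to 4.43 and 3.52, Adgrv1, an adhesion receptor, from 0.81 and 0.62 to 3.23 and 2.48, and C6 from 1.00 and 0.97 to 2.91 and 2.74. The 4 wk call of Gstp2 was lost in 7 of 17 alternatives, among them without either replicate, with the replicate number as a block and with the adjustment over M4/F4 alone, and the arrays against 8 wk pools gave 1.89 and -0.38 for it. The 4 wk calls of Adgrv1, C6 and Cga were lost without replicate 2. In each of these genes the sexes lay further apart at 8 wk. The study's qPCR found no significant sex difference in Gstp or C6 before 8 wk. On the arrays that compare ages within a sex, 8 wk over 4 wk was -5.34 in males and -0.58 in females for Cyp3a44, with adjusted p-values of 0.000127 and 0.206. For A1bg it was -4.19 and -0.10, and for C6 2.17 and 0.25. Those arrays share the 4 wk pools with M4/F4.

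For a few genes the sex difference was called at 4 wk and not at 8 wk, and the difference between the ages passed the test. Slc10a2, a bile acid transporter, had 0.90 and 1.33 at 4 wk and -0.24 and 0.01 at 8 wk (adjusted p = 0.0311). Aacs, acetoacetyl-CoA synthetase, had 0.99 and 0.84 at 4 wk and -0.59 and -0.36 at 8 wk (adjusted p = 0.0208). Hsd3b4, a steroid dehydrogenase relative, had -1.07 and -0.91 at 4 wk and 0.71 and 0.48 at 8 wk (adjusted p = 0.0305), but its 4 wk call was lost without either replicate. Female levels at 8 wk over 4 wk, on arrays that share the F4 pools, were 1.48 for Slc10a2, 1.15 for Aacs and -2.09 for Hsd3b4, against 0.24, -0.17 and -0.68 in males.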

How the data were processed

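RNA of CD-1 mouse liver pools was hybridised by the authors to Agilent whole-genome arrays in pairs with swapped dyes. The deposited log10 ratio of red over green (Feature Extraction 10.7.1.1, dye-normalized) was turned to log2 and to male over female by the labelled dyes. The methods give the dye order of both M3/F3 replicates the other way round, and the Y-linked genes and Xist went with the labels. The deposited intensity columns gave signals and background calls. Control spots and non-uniform spots (4 and 7 on the M4/F4 arrays) were left out, and 0 were saturated. Spots of 1 probe were averaged, giving 39429 probes, of which 26055 were named through RefSeq accessions (19751 genes) and 13374 stayed unnamed.

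A limma (3.58.1, R 4.3.3) fit over all 14 arrays estimated the 7 comparisons and a dye effect per probe. P-values were adjusted by Benjamini-Hochberg over all probes and comparisons, and within each contrast between ages. The number of arrays limits the precision. Scripts were tested on simulated data. In the gene lists, the probe with the highest mean signal stood for a gene with several probes. In the counts of called genes, a gene counted when any of its probes was called. For these genes, and for those named for their ratios or differences between ages, the brightest called probe was used. Genes named by rule were the 12 largest and 12 smallest ratios among called genes bright in both groups with the same sign on both arrays, called list members, the 8 largest and 8 smallest called differences between ages, and regulators and genes measured by qPCR in the study. Other genes were named after their values were seen. The members and lists were chosen with earlier results of these data known. For the normexp alternative, median signals and backgrounds were used. The series value table held the same log10 ratios as the scanner files, and its scale and direction were taken from them.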

Additional observations from a re-analysis of the deposited data

Results flagged for a closer look

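The sex difference changed between ages by the test of the difference itself for 1 gene between 3 and 4 wk and for 273 genes between 4 and 8 wk. Over the alternatives run these counts depended on the fit, with 0 and 179 without the dye term, 117 and 971 with 6 group means, and 1 and 68 without replicate 1 of M4/F4. Between 3 and 4 wk the gene was Serinc2, with a change of 0.71 in the log2 male over female ratio. Groups of 2 arrays are too small to test for an outlying sample.

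Between 4 and 8 wk the log2 male over female ratio moved towards females for the following named genes. The changes among P450s were -5.07 for Cyp3a44, -3.48 for Cyp2b9, -3.10 for Cyp2a22, -2.97 for Cyp4a10, -2.38 for Cyp4a31, -1.81 for Cyp2c37, -1.70 for Cyp2c39 and -1.63 for Cyp2b10. For other enzymes and transport proteins they were -3.43 for a probe of Sult2a2, -2.78 for Acot3, -1.80 for Atp6v0d2, -1.31 for Fmo2 and -1.08 for Rdh16f2. The brighter probe of Sult2a2 had a difference of -2.27 and did not pass the test (adjusted p = 0.0825 in limma). For secreted proteins they were -3.73 for A1bg and -2.75 for Cga. For regulators they were -1.98 for Jazf1, -1.48 for Tox, -1.43 for Id1 and -0.81 for Trim24.

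It moved towards males by 3.20 for Mup20, 2.92 for Gstp2, 2.47 and 2.48 for the 2 probes of Gstp1, 2.14 for Adgrv1, 1.84 for C6, 1.45 for Cyp2u1 and 1.33 for Cspg5. It also moved towards males by 1.59 for Hsd3b4 and 1.08 for Igfbp2, both female-biased at 4 wk.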

How the results depend on the processing

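None of the 83 called probes of named genes changed sign at 4 wk under the alternatives run, while the uncalled Jazf1 and Klf17, whose arrays lay on opposite sides of 0, did. Of the 83, 27 were called under every setting apart from the stricter fold and the 2 arrays alone, while 32 were lost with the adjustment over M4/F4 alone, 43 without replicate 1 and 31 without replicate 2. Against 113 male-biased and 178 female-biased genes, there were 50 and 86 with the adjustment over M4/F4 alone, 653 and 839 with no fold threshold, 32 and 63 at a fold of 2, and 0 and 0 with the 2 arrays alone in limma (3065 of 22139 probes at unadjusted p below 0.05). With 6 group means 189 and 233 were called, and with the error-weighted average at p below 1e-04 there were 206 and 225. Leaving out 1 array gave 75 to 84 male-biased and 112 to 149 female-biased genes, of which 54 to 57 and 73 to 95 were among the 113 and 178. Against 1 gene for the difference between 4 and 3 wk, limma gave 0 without the dye term (1504 probes at unadjusted p below 0.05) and 0 at a fold of 2 (2246), 3 with a dye term per pair of slides, 117 with 6 group means, 9 with normexp, 2 without a background filter, and 1 to 25 without 1 array. Against 273 genes for the difference between 8 and 4 wk, there were 179 without the dye term, 971 with 6 group means, 423 with no fold threshold, 171 at a fold of 2, and 68 to 169 without 1 array. Leaving out 15572 probes dim in all 6 groups, chosen after seeing the data, gave 157 male-biased and 213 female-biased genes, and 3 and 461 for the differences. With the replicate number as a block, 116 male-biased and 182 female-biased genes were called, 103 and 166 of them as before, and 2 and 270 for the differences, 1 and 221 of them as before. Of the named genes, Mup20, Cyp2b9, Klk1b5, Spp1 and Gstp2 lost their 4 wk call under the block. The labels do not say that a replicate number marks a batch, but replicate 1 and replicate 2 lay on separate slides. The deviations of M4/F4 correlated with those of M3/F3 (0.185), M8/F8 (0.253) and M8/M3 (-0.221), which share its slides. The correlations were -0.452 with M8/M4 and 0.0593 with F8/F4, which share its pools, and -0.322 with F8/F3, which shares neither. Dye effects were left in these deviations. In replicate 1 the numerator was red for M3/F3, M4/F4 and M8/F8 and green for the 8 wk over younger comparisons. A dye effect thus enters the correlations with opposite signs, and whether the numbers pair the arrays was not settled. The cause of these changes was not tested. A ratio of exactly 0 on both arrays was listed for 4254 probes, which have no measured direction.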

Other observations

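The following called genes were on no list and were named after their values were seen, so their number says nothing of any group. Among genes called female-biased at 4 wk, Oat, ornithine aminotransferase, had log2 ratios of -1.01 and -0.91, Prodh, proline dehydrogenase, had -0.83 and -1.08, and Got1, aspartate aminotransferase, had -0.87 and -0.97. Hpd, of tyrosine breakdown, had -0.66 and -0.65, Rhbg, an ammonium transporter, had -0.78 and -0.71, and Slc1a2, a glutamate transporter, had -1.17 and -0.65. The calls of these 6 genes were kept without replicate 1, without replicate 2 and with the adjustment over M4/F4 alone. Ppargc1a, a coactivator that is raised in fasting, had -1.19 and -1.02, and Lgr5, a receptor of Wnt signalling, had -0.78 and -0.58. Both calls were lost without replicate 1 and with that adjustment, and that of Ppargc1a also without replicate 2.

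Among genes called male-biased at 4 wk, Aox3, an aldehyde oxidase, had 1.45 and 1.06, and its relative Aox1 had 0.65 and 0.74. The carboxylesterases Ces1f and Ces3a had 0.65 and 0.62 and 0.88 and 0.45. The calls of these 4 genes were kept under the same alternatives, apart from that of Aox1, which was lost without replicate 2. Fst, follistatin, an activin inhibitor, had 0.99 and 1.38 at 4 wk and a mean of -0.46 at 3 wk, and its 4 wk call was lost without either replicate.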
